A study of Mus musculus with 768 samples.

Results

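Lysosomal cathepsins and membrane proteins were followed in cancer-associated fibroblasts, the mesenchymal cells of the tumor stroma. The 10 genes, chosen by symbol among the 24490 endogenous genes of the tables, were *Ctsa*, *Ctsb*, *Ctsd*, *Ctsk*, *Ctsl*, *Ctss*, *Ctsz*, *Lamp1*, *Lamp2* and *Creg1*. The cells came from 2 mammary tumors of 14-week-old mice of the strain FVB/N-Tg(MMTVPyVT)634Mul/J. The authors describe 1 tumor per plate but do not state whether the 2 tumors came from different animals. In this strain the mouse mammary tumor virus promoter drives the polyoma middle T oncogene in the mammary epithelium, so all cells studied shared that transgene and none came from a tumor-free animal. Cells negative for EpCAM, CD45, CD31 and NG2 had been sorted singly into 768 wells and sequenced by Smart-seq2, with 1 plate of 384 wells per tumor. The tumor is therefore the replicate (n = 2), cells are not, and a difference between tumors cannot be told apart from one between plates.

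All 727 wells with at least 10000 non-ERCC reads were used, 373 of tumor 1 and 354 of tumor 2, with 10281 to 1190516 reads each (median 207477). A well was called vascular when *Rgs5*, a pericyte gene, had an RPKM (reads per kilobase of gene and per 1e6 reads) of at least 50 and more than *Dcn*. It was called matrix when *Dcn*, which encodes the collagen-binding proteoglycan decorin, reached 50 and at least the value of *Rgs5*. *Rgs5*-high wells with *Top2a*, a topoisomerase of dividing cells, at an RPKM of at least 5 formed the Top2a-positive class and were taken out of the vascular one. This gave 443 vascular cells (237 of tumor 1 and 206 of tumor 2), 172 matrix cells (89 and 83) and 65 Top2a-positive cells (29 and 36), with 5 *Dcn*-high Top2a-positive wells and 42 wells in no class. Near the limits, 5 wells without a class had the higher of *Rgs5* and *Dcn* between 25 and 50, and 9 wells with a class between 50 and 100. Both genes reached 50 in 29 wells. Among *Rgs5*-high wells, *Top2a* was above 0 and under 5 in 24 and between 5 and 10 in 6, and with a *Top2a* limit of 20 the Top2a-positive class held 26 and 23 wells.

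The classes were described by lists of marker genes. The vascular, matrix and cycling lists include *Rgs5*, *Dcn* and *Top2a*, which set the classes, so their sums were partly fixed by the class rule. A list of 10 vascular genes summed to 23078 and 23899 CPM (counts scaled to the library total) in the vascular cells of tumors 1 and 2, to 471 and 474 in matrix cells and to 18656 and 18355 in Top2a-positive cells. A list of 10 matrix genes summed to 461 and 779, to 19154 and 17261, and to 208 and 355 CPM in the same order, and 8 cycling genes to 60.6 and 53.1, 68.0 and 35.4, and 3138 and 2933 CPM. Depth and RNA content moved with the class. The median share of reads on the ERCC spike-ins was 14.8% and 12.97% in vascular cells, 6.73% and 6.23% in matrix cells and 8.89% and 8.63% in Top2a-positive cells, and the median number of genes with a read was 4021 and 4096, 5525 and 5543, and 5360 and 5098. Values scaled to the spike-ins therefore stand beside each comparison, and fits restricted to deeper wells or with equal totals per cell were also made.

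Lysosomes are acidic organelles in which proteins, lipids and glycans taken up or discarded by the cell are broken down. The cathepsins are their proteases. *Ctsb*, *Ctsl*, *Ctsk*, *Ctsz* and *Ctss* encode cysteine proteases, *Ctsd* an aspartic protease and *Ctsa* a serine carboxypeptidase, while LAMP1 and LAMP2 are the heavily glycosylated proteins that line the lysosomal membrane. Most cathepsins are made as inactive precursors, carried to the lysosome by mannose 6-phosphate receptors and other sorting receptors, and in part secreted, where they can cut matrix proteins. Cathepsin K is best known as the collagenase of osteoclasts and cathepsin S as a protease of antigen-presenting cells.

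In the genome build mm10 (GRCm38), *Ctsk* lies on chromosome 3 from 95499210 to 95509387 and *Ctss* on the same chromosome and strand from 95526786 to 95556405, with 17398 bases and 1 other RefSeq gene between them. *Ctsb* lies on chromosome 14 (63122462 to 63145923), *Ctsl* on chromosome 13 (64361890 to 64370772), *Ctsz* on chromosome 2 (174427494 to 174439039), *Ctsd* on chromosome 7 (142375910 to 142387827) and *Ctsa* on chromosome 2 (164832872 to 164841032). *Lamp1* is found on chromosome 8 (13159161 to 13175338), *Lamp2* on chromosome X (38399647 to 38456460) and *Creg1* on chromosome 1 (165763758 to 165775309). Gene spans of *Ctsb*, *Ctsz* and *Ctsa* overlap those of *Fdft1*, *Nelfcd*, and *Neurl2* and *Pltp*, and the counting is not stated to use strand, so reads of such pairs may not be fully separated.

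Promoters from RefSeq (GRCm38.p6) were found for 9 of the 10 genes, all but *Ctsb*. The 250 bases before each start were searched for CACGTG, the core of the E-box bound by TFEB and TFE3, the transcription factors of lysosomal genes, and for the longer TCACGTGA, which contains it. Each motif is its own reverse complement, so both strands were covered. CACGTG was present for 4 of 9 members (*Ctsl*, *Ctsd*, *Ctsa* and *Lamp1*), for 22.03% of 59 other lysosomal genes and for 6.86% of all 27025 genes with a promoter. TCACGTGA was present for 2 of 9 members (*Ctsd* and *Ctsa*), for 6.78% of the other lysosomal genes and for 0.907% of all genes. The stretches just before the starts of *Lamp1* (chr8:13159081-13159160, plus strand, ending at the base before the start) and *Ctsd* (chr7:142387898-142387947, minus strand, 120 to 71 bases before the start) are shown because the former holds 4 copies of the core and the latter the longer form. Capitals mark CACGTG.
Lamp1: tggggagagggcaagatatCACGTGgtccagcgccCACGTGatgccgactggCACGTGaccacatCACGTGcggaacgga
Ctsd: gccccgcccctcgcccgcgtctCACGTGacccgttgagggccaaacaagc
The match of *Ctsa* lies before the later of its listed starts, within the gene span given above, and that of *Ctsl* also lies within its span, since the start in the promoter table is inside it. These matches describe the sequence and were not set against the expression values.

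Levels were high for most of the genes and differed between the classes. Averaged over cells as log2(RPKM + 1), the order in vascular cells began with *Lamp1* at 7.97 ± 0.22 (SD, n = 2 tumors), *Lamp2* at 7.41 ± 0.13, *Ctsb* at 7.38 ± 0.10 and *Ctsz* at 7.06 ± 0.05. It went on with *Ctsd* at 6.79 ± 0.33, *Ctsl* at 6.40 ± 0.25, *Ctsk* at 6.17 ± 0.16, *Ctsa* at 5.52 ± 0.12, *Creg1* at 2.27 ± 0.34 and *Ctss* at 0.06 ± 0.05. *Lamp2* and *Ctsb*, *Ctsz* and *Ctsd*, *Ctsd* and *Ctsl*, and *Ctsl* and *Ctsk* were neighbors that differed by no more than the sum of their SDs. In matrix cells the cathepsins led, with *Ctsd* at 8.79 ± 0.03, *Ctsb* at 8.67 ± 0.02, *Ctsk* at 8.57 ± 0.24 and *Ctsz* at 8.36 ± 0.21. *Lamp1* at 8.27 ± 0.21, *Lamp2* at 8.25 ± 0.09 and *Ctsl* at 8.11 ± 0.12 followed, then *Ctsa* at 6.28 ± 0.21, *Creg1* at 4.6 ± 0.45 and *Ctss* at 0.15 ± 0.03. From *Ctsb* to *Ctsl* each gene lay within the summed SDs of the next, so that order is not resolved. *Ctsk* thus stood behind both membrane proteins in vascular cells and level with or above them in matrix cells.

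In Top2a-positive cells *Lamp1* was again first, at 7.85 ± 0.02, before *Ctsz* at 7.54 ± 0.33, and *Lamp2* (6.83 ± 0.21), *Ctsb* (6.83 ± 0.14), *Ctsd* (6.74 ± 0.07) and *Ctsk* (6.66 ± 0.59) were within their summed SDs of each other. *Ctsl* followed at 5.14 ± 0.09, *Ctsa* at 4.82 ± 0.90, *Creg1* at 2.83 ± 0.13 and *Ctss* at 0.18 ± 0.02. *Lamp1* and *Ctsz*, and *Ctsl* and *Ctsa*, also lay within their summed SDs.

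**Figure D1:**
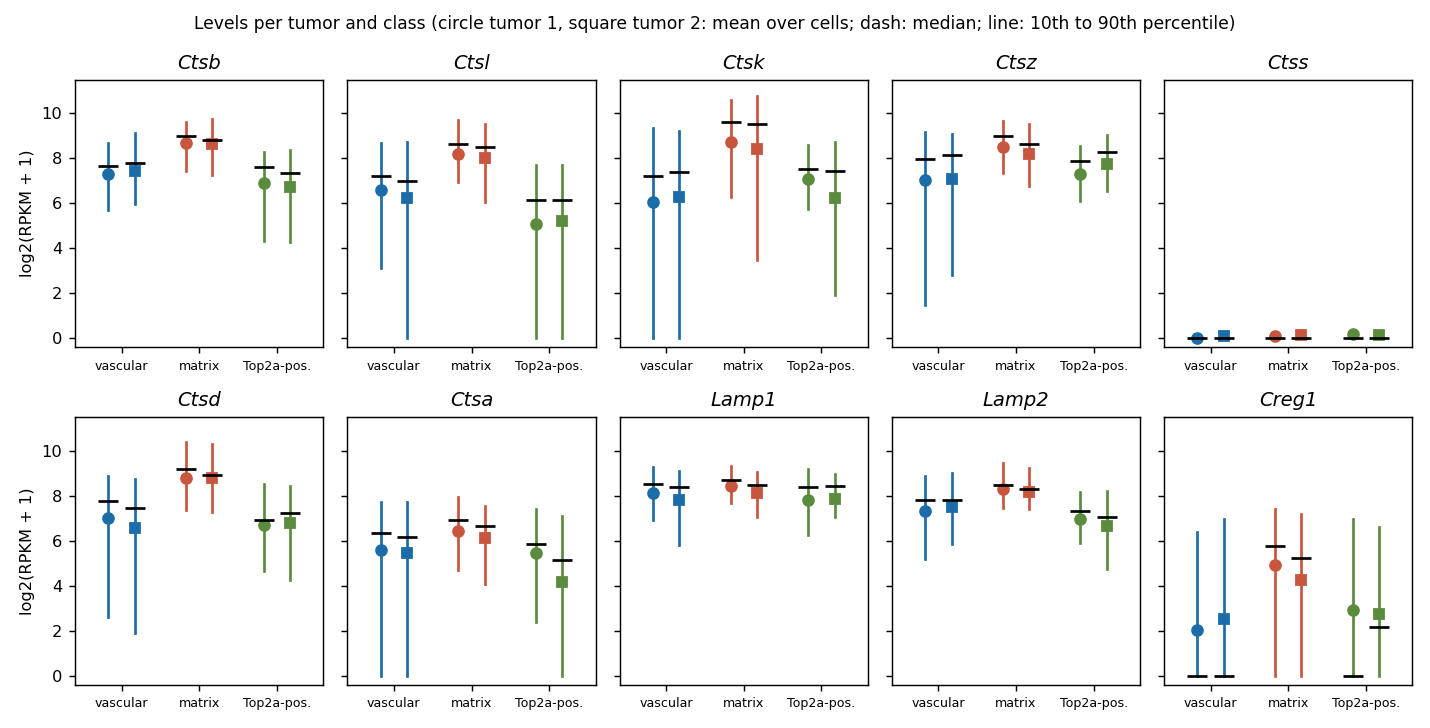
Levels of the 10 genes as log2(RPKM + 1) in vascular, matrix and Top2a-positive cells. Circles (tumor 1) and squares (tumor 2) are means over cells, dashes are medians and lines run from the 10th to the 90th percentile of the cells. Matrix means lie above vascular means in both tumors for all genes, by little for *Lamp1*, and *Ctss* stays near 0 in every class.

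To ask which of these genes differed between matrix and vascular cells, the counts were summed per class and tumor, giving 6 libraries, and tested with edgeR's quasi-likelihood test over the 11583 genes whose mean RPKM reached 1. *Ctss* did not reach that limit, which leaves 9 members. With Benjamini-Hochberg adjustment and a threshold of 0.05, 6 of the 9 were higher in matrix cells and 0 lower (*Ctsk*, *Ctsd*, *Ctsb*, *Ctsl*, *Ctsz* and *Lamp2*). Over all genes 5.83% were called higher (675) and 4.77% lower (553). DESeq2 called 7 members higher (all genes: 10.4% higher, 8.12% lower), limma on the mean log2(RPKM + 1) also 7 (15.0% and 4.80%), and edgeR with a block for the tumor 6 (5.84% and 4.78%). The median log2 fold change of the 9 was 1.12, against -0.03 over all genes tested, and all 9 were above 0 in each tumor on its own, as were 34.3% of all genes, with 37.3% below 0 in both. For all 9 both matrix libraries lay above both vascular ones in CPM, which held for 28.1% of all genes. The classes were set by *Rgs5*, *Dcn* and *Top2a* in the same cells, so the p-values describe differences between cells picked by those genes. Each p-value rests on 2 tumors per class. It sets the difference against the spread between libraries of a class, which was estimated over the 3 classes together.

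*Ctsk* had the largest fold change of the 9. It stood at 443 and 463 CPM in the vascular cells of tumors 1 and 2 and at 1736 and 1633 CPM in the matrix cells. This is a log2 fold change of 1.89 (standard error, SE, 0.15, adjusted p = 0.0013 from edgeR), or 3.72-fold, higher than that of 92.9% of all genes tested. *Ctsd* rose from 547 and 444 CPM to 1630 and 1509 CPM, by 1.66 on the log2 scale (SE 0.18, adjusted p = 0.0034 from edgeR).

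*Ctsb*, *Ctsl* and *Ctsz* rose as well. *Ctsb*, whose product also acts as a carboxypeptidase, went from 1033 and 1188 CPM to 2608 and 2709 CPM (log2 fold change 1.26, SE 0.19, adjusted p = 0.010 from edgeR). *Ctsl*, a potent endopeptidase, went from 402 and 423 CPM to 1079 and 993 CPM (1.33, SE 0.28, adjusted p = 0.032). *Ctsz*, a carboxypeptidase, went from 443 and 425 CPM to 898 and 767 CPM (0.94, SE 0.18, adjusted p = 0.023). *Ctsa*, which protects beta-galactosidase and neuraminidase in the lysosome, measured 316 and 299 CPM in vascular and 473 and 353 CPM in matrix cells, a log2 fold change of 0.43 (SE 0.31, adjusted p = 0.52) that did not pass the test.

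Of the membrane proteins, *Lamp2*, which also serves as receptor of chaperone-mediated autophagy, stood at 951 and 929 CPM in vascular and 1658 and 1436 CPM in matrix cells. Its log2 fold change of 0.72 (SE 0.17, adjusted p = 0.048 from edgeR) lay close to the threshold. The adjusted p was 0.056 without the wells with a read of *Epcam*, *Ptprc* or *Pecam1*, 0.058 without the filter on low genes and 0.13 with *Top2a* at an RPKM of at least 20. *Lamp1* stood at 934 and 817 CPM against 1218 and 980 CPM, with a log2 fold change of 0.33 (SE 0.18, adjusted p = 0.37) that did not pass. A difference between the *Lamp1* and *Ctsk* changes was not tested.

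*Creg1* encodes a secreted glycoprotein that also resides in lysosomes. It was read in 37.6% of the vascular cells of tumor 1 (exact binomial 95% confidence interval 31.4 to 44.1%, which covers counting error only) and 44.2% of those of tumor 2 (37.3 to 51.2%). In matrix cells it was read in 84.3% (75.0 to 91.1%) and 74.7% (64.0 to 83.6%), and in Top2a-positive cells in 48.3% (29.4 to 67.5%) and 52.8% (35.5 to 69.6%). Cells with at least 50000 reads (231 and 193 vascular, 81 and 79 matrix, 27 and 35 Top2a-positive; the shallower ones were left out) were thinned to that number, which gave 35.1% and 44.0%, 82.7% and 73.4%, and 48.1% and 45.7%, so the gap between matrix and vascular cells remained at equal depth. Summed counts were 66.0 and 94.2 CPM in vascular and 196 and 154 CPM in matrix cells, a log2 fold change of 1.12 (SE 0.32, adjusted p = 0.090 from edgeR), which missed the threshold. It passed with DESeq2 (adjusted p = 0.0087), with limma on the mean log2(RPKM + 1) (adjusted p = 0.00067), with each cell scaled to the same total (0.043) and with only the 4 libraries compared (0.036).

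**Figure D2:**
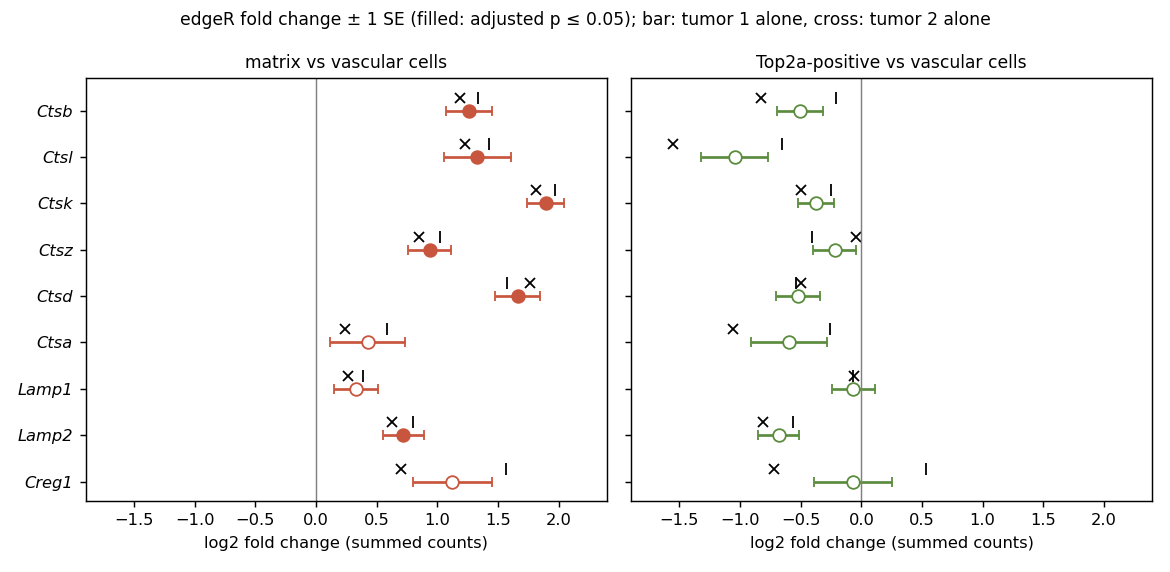
Log2 fold changes of the 9 tested genes against vascular cells, from edgeR on counts summed per class and tumor. Points with bars are the estimate ± 1 standard error, filled at an adjusted p of at most 0.05, and the marks above show tumor 1 (bar) and tumor 2 (cross) alone. All 9 lie to the right of 0 in matrix cells, and none is filled in Top2a-positive cells.

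These values are relative to the other RNA of each library. Scaled instead to the ERCC reads, the median over all genes went from -0.03 to 0.67 in matrix cells, with 18.6% of genes called higher (2149) and 3.31% lower (383). All 9 members then passed (adjusted p of 0.00051 to 0.033), with a median log2 fold change of 1.81, and all lay above the median of all genes, led by *Ctsk* at 2.59 and *Ctsd* at 2.37. *Lamp1* at 1.03 and *Ctsa* at 1.12 were the nearest to it.

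To ask whether dividing cells of the vascular kind differed, Top2a-positive cells were set against the same vascular libraries, so both comparisons share these controls. None of the 9 members passed the adjusted p of 0.05 in edgeR, where 1.16% of all genes were called higher (134) and 0.207% lower (24). At an unadjusted p under 0.05, 5 members did (*Ctsb*, *Ctsl*, *Ctsk*, *Ctsd* and *Lamp2*), all lower. Of all genes tested, 7.38% were lower and 7.46% higher at that p. DESeq2 called 2 lower, *Ctsl* and *Lamp2*, with 3.88% of all genes lower (449) and 4.78% higher (554), and limma called *Ctsl* lower, with 0.311% of all genes lower (36) and 12.7% higher (1476). With a block for the tumor 0 members were called (0.881% of all genes higher, 0.173% lower). The median log2 fold change of the members was -0.51 against -0.04 over all genes, and 8 of the 9 were below 0 in both tumors, as were 33.8% of all genes, with 27.3% above 0 in both. For 7 of the 9, all but *Lamp1* and *Creg1*, both Top2a-positive libraries lay below both vascular ones in CPM, as for 24.9% of all genes.

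*Ctsl* had the lowest fold change of the members. It measured 402 and 423 CPM in vascular and 255 and 144 CPM in Top2a-positive cells, with a log2 fold change of -1.05 (SE 0.28, adjusted p = 0.15 from edgeR, 0.0063 from DESeq2 and 0.0092 from limma). The 2 Top2a-positive libraries lay below both vascular ones but differed from each other by more than the vascular pair did. *Lamp2* stood at 951 and 929 CPM against 644 and 528 CPM (-0.68, SE 0.17, adjusted p = 0.13 from edgeR and 0.0018 from DESeq2). *Ctsd* was at 376 and 315 CPM (-0.52, adjusted p = 0.25 from edgeR), *Ctsb* at 893 and 670 CPM (-0.51, adjusted p = 0.29) and *Ctsa* at 263 and 143 CPM (-0.60, adjusted p = 0.45).

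*Lamp1* was close to its vascular level, with 891 and 781 CPM against 934 and 817 CPM (log2 fold change -0.07, SE 0.18, adjusted p = 0.92 from edgeR). For *Ctsk* (373 and 328 CPM, -0.37, SE 0.15, adjusted p = 0.32) and *Ctsz* (334 and 412 CPM, -0.22, SE 0.18, adjusted p = 0.63) the direction depended on the measure. Their mean log2(RPKM + 1) was 0.50 and 0.48 higher in Top2a-positive than in vascular cells. On that measure the median over all genes tested was itself 0.26 higher. *Creg1* (95.5 and 57.2 CPM, -0.07, SE 0.32, adjusted p = 0.96) went opposite ways in the tumors, by 0.53 in tumor 1 and -0.72 in tumor 2. Scaled to the ERCC reads, where the all-gene median was 0.66 and 14.8% of genes were called higher (1716) and 0.665% lower (77), 8 members turned above 0 and only *Ctsl* stayed below (-0.37), and *Lamp1* alone was called, higher (0.63, adjusted p = 0.040). All 9 then lay below that median.

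*Ctss* was rarely read. Of the 727 wells, 17 had a read of it, 1 of 237 and 5 of 206 vascular cells, 2 of 89 and 3 of 83 matrix cells and 1 of 29 and 1 of 36 Top2a-positive cells in tumors 1 and 2. The others were 1 of 14 and 2 of 28 wells in no class and 1 *Dcn*-high Top2a-positive well. The highest well held 52 reads, an RPKM of 105. *Ctsk*, nearby on the same strand of chromosome 3, was read in 83.5% and 84.5% of vascular and 94.4% and 91.6% of matrix cells. A list of 12 macrophage and other immune markers, which includes *Ptprc* (CD45, a sorting marker), summed to 2.31 to 19.1 CPM in every class and tumor, and *Ptprc* itself was read in 1 well. Of the 17 wells with *Ctss*, 3 had reads of at least 3 of these markers, against 2 of the 710 without. The median number of these markers with a read was 0 in both groups, and the maximum was 6 and 3. The source of the *Ctss* reads was not tested.

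The 42 wells in no class had much *Ctsd* and little *Ctsk*. Their mean log2(RPKM + 1) of *Ctsd* was 8.57 in tumor 1 (14 wells) and 7.10 in tumor 2 (28 wells). This was above the 7.02 and 6.55 of vascular cells and below the 8.77 and 8.81 of matrix cells. By mean RPKM their *Ctsd*, at 815 and 748, was above the 661 and 632 of matrix cells. By mean log2(RPKM + 1), *Ctsk* was at 2.46 and 1.52 and *Ctsb* at 6.19 and 6.09 in the wells of no class, below every named class. For *Ctsb* this depended on the measure. Its mean RPKM was 228 and 262 in vascular, 496 and 542 in matrix and 197 and 166 in Top2a-positive cells, and 234 and 204 in the wells of no class. These wells had the highest ERCC shares (median 20.8% and 16.2%), and their summed CPM was 15604 and 12058 for 7 developmental markers (*Sox9*, *Sox10* and others) and 3549 and 4431 for 7 epithelial ones, against 14.97 to 433 and 7.62 to 172 in the 3 classes. They were not tested.

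To see whether the change in matrix cells was shared by other lysosomal genes, 104 genes in 8 lists were read from the same fit, of which 97 were tested. In matrix cells 15 rose and 2 fell in edgeR, where 5.83% of all genes were called higher and 4.77% lower, and scaled to the ERCC reads 47 were called higher and 1 lower (18.6% and 3.31% of all genes). They had a median log2 fold change of 0.38 against -0.03 over all genes. The hydrolases held 10 of the 15, out of 34, with none lower and a median of 0.70. Their smallest adjusted p-values were those of *Arsb*, the sulfatase of dermatan sulfate, at 22 and 21.7 CPM in vascular and 125 and 108 CPM in matrix cells (2.41, SE 0.24, adjusted p = 0.0025 from edgeR), and of *Scpep1*, a serine carboxypeptidase (1.57, SE 0.18, adjusted p = 0.0036). *Acp5*, the acid phosphatase that marks osteoclasts together with *Ctsk*, was named after its values were seen. It stood at 0.0983 and 0.662 CPM in vascular and 36.4 and 16.5 CPM in matrix cells (adjusted p = 0.049 from edgeR and 0.094 with a block), and with so few vascular reads no fold is given.

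The other lists held fewer calls. Among 4 genes of sphingolipid and sterol handling, *Npc2*, which binds cholesterol in the lysosome, rose (1.10, SE 0.16, adjusted p = 0.0098 from edgeR) and *Psap*, the saposin precursor, had 0.43 (adjusted p = 0.46). edgeR made no call for 4 other cathepsins tested, among them *Ctsf* (1.44, SE 0.80) and *Ctsh* (2.38, SE 1.38), or for 16 membrane proteins (*Cd63* 0.51, adjusted p = 0.093). DESeq2 called *Cd63* higher (adjusted p = 0.00074), and 7 membrane proteins were called higher when scaled to the ERCC reads. Of 15 subunits and accessory proteins of the proton pump edgeR called only *Atp6ap2* higher (0.82, SE 0.15, adjusted p = 0.023), and *Atp6ap1* had 0.35 (adjusted p = 0.26). This 1 call stands against 5.83% of all genes, and scaled to the ERCC reads 8 of the 15 were called higher. The list's median was 0.14. edgeR called none of 10 regulators tested, and 3 were called higher when scaled to the ERCC reads, with *Tfe3* at 0.42 (adjusted p = 0.32 from edgeR, 0.019 with the ERCC reads) and *Mitf* at -0.49 (adjusted p = 0.43).

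Genes of 2 sorting receptors fell. *Sort1*, which encodes sortilin, a receptor that carries prosaposin and some cathepsins, stood at 176 and 177 CPM in vascular and at 20.2 and 13.3 CPM in matrix cells (log2 fold change -3.40, SE 0.26, adjusted p = 0.0011 from edgeR). *M6pr*, the cation-dependent mannose 6-phosphate receptor, stood at 293 and 217 CPM and at 81.9 and 106 CPM (-1.44, SE 0.23, adjusted p = 0.012), and with the ERCC totals the adjusted p was 0.087. Of the 9 genes of this list, *Gga2*, an adaptor of these receptors that was named after its values were seen, was the only one edgeR called higher (1.82, SE 0.42, adjusted p = 0.043, and 0.055 with the block), while 3 were called higher when scaled to the ERCC reads. The list labeled cathepsin inhibitors held 5 tested protease inhibitor genes, not all of them inhibitors of lysosomal cathepsins. Of these, *Cst3*, which encodes cystatin C, rose from 978 and 809 CPM to 1589 and 1978 CPM (1.00, SE 0.18, adjusted p = 0.021 from edgeR). *Serpinb1a* rose from 0.885 and 1.42 CPM to 19.7 and 13.3 CPM (3.84, SE 0.89, adjusted p = 0.045 from edgeR, and 0.082 with the block).

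In Top2a-positive cells none of the 97 genes passed in edgeR, and 16 had an unadjusted p under 0.05, where 7.38% of all genes were lower and 7.46% higher. DESeq2 called 6, all lower (3.88% of all genes), and scaled to the ERCC reads 8 were called, all higher (14.8% of all genes). The median was -0.29, against -0.04 over all genes. The smallest adjusted p-values belonged to *Mitf* (log2 fold change -1.59, adjusted p = 0.081 from edgeR), *Atp6v0b* (-0.87, 0.089), *Neu1*, the sialidase that *Ctsa* holds in its complex (-1.46, 0.11), *Asah1*, the acid ceramidase (-1.10, 0.13), and *Cst3* (-0.66, 0.17). *Serpinb1a* stood at 0.129 and 0 CPM in Top2a-positive cells, too few reads for a fold. The remaining genes named by the rule (*Gm2a*, *Psap*, *Ctsf*, *Ctsc*, *Slc17a5*, *Cd63*, *Atp6v1f*, *Gga3*, *Nagpa* and *Lamtor4*) had adjusted p-values of 0.23 to 0.67 and log2 fold changes between -1.83 and 0.24.

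**Figure D3:**
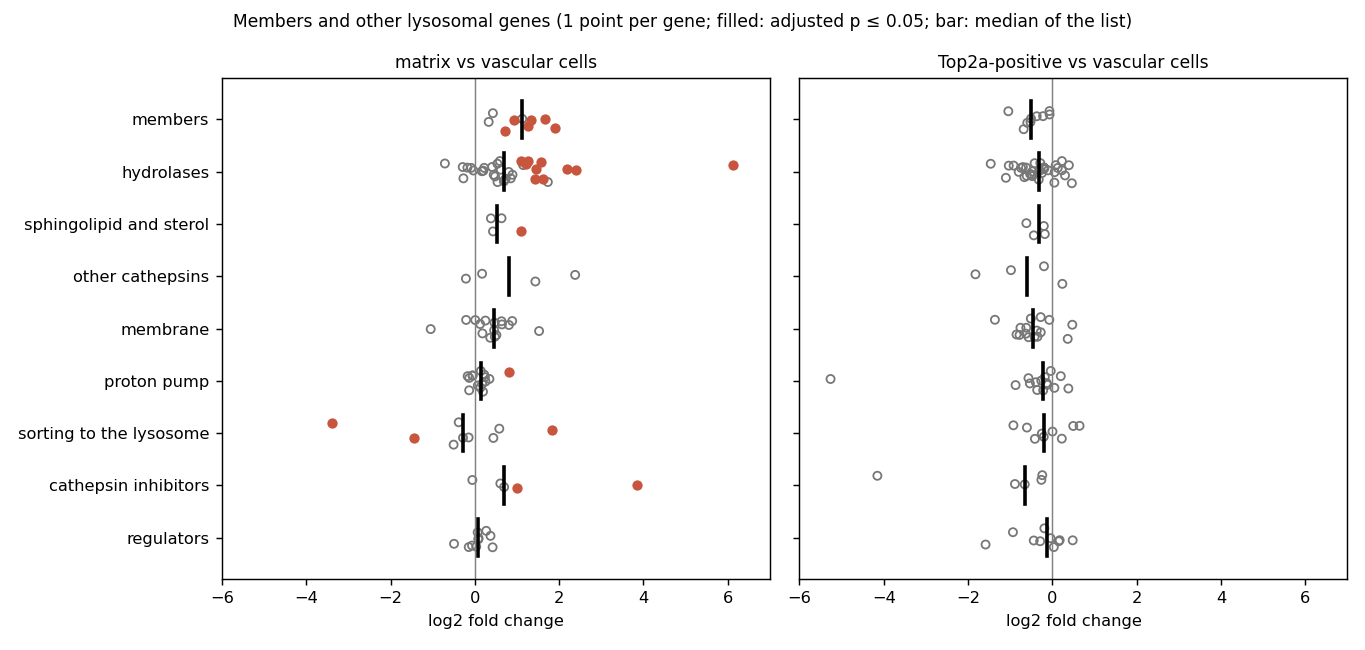
Log2 fold change of each tested member and each other lysosomal gene, by list, in both comparisons. Filled points passed an adjusted p of 0.05 and black bars are list medians. The 10 hydrolases called in matrix cells lie to the right of 0, *Sort1* and *M6pr* are the filled points to the left of 0, and no point is filled in Top2a-positive cells, where the far left points (*Atp6v0c* and *Serpinb1a*) have almost no reads.

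Over single cells most pairs of the 9 genes with enough reads correlated above 0, namely 36 and 35 of the 36 pairs in the vascular cells of tumors 1 and 2 and 36 and 31 in matrix cells. The pairwise Pearson correlations of log2(RPKM + 1) had a median of 0.17 and 0.16 in the vascular cells of tumors 1 and 2 and of 0.44 and 0.27 in matrix cells. *Ctsb* and *Lamp1* were the most alike pair in matrix cells by the lower of the tumors (0.65 and 0.57), followed by *Ctsl* and *Lamp1* (0.59 and 0.55). These cells share their library depth, and the mean level of the 9 genes correlated with the log2 number of reads by 0.60 and 0.57 in vascular and by 0.73 and 0.68 in matrix cells, so the coefficients are descriptions and carry no test.

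**Figure D4:**
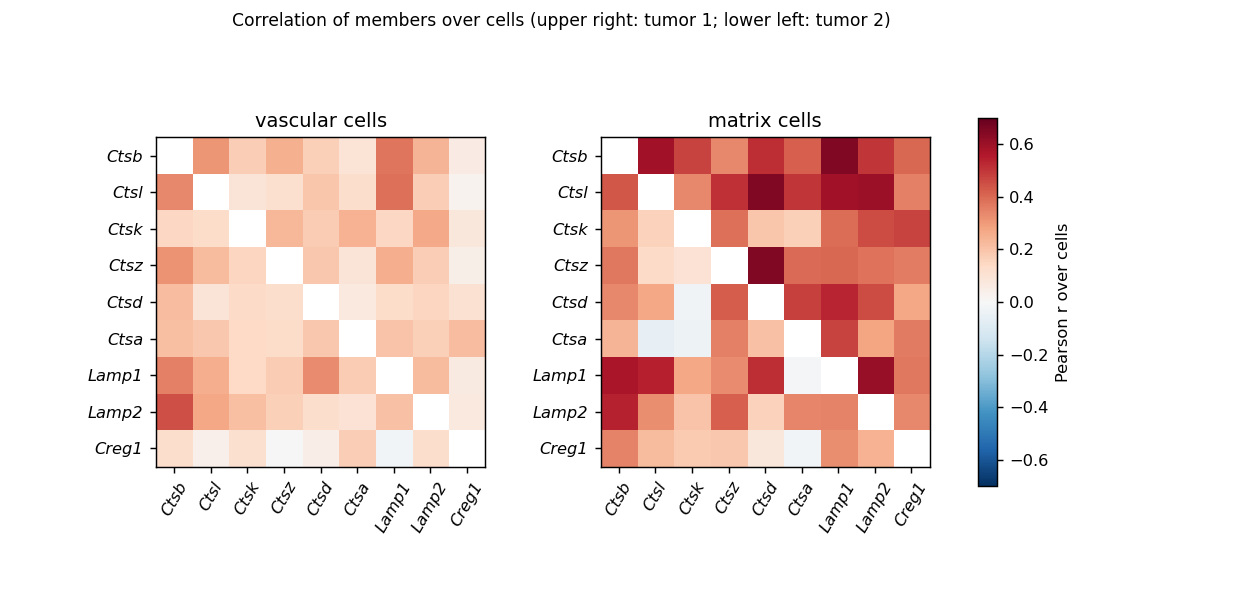
Pearson correlation between members over cells, for vascular and matrix cells, with tumor 1 above and tumor 2 below the diagonal. Vascular coefficients lie between -0.02 and 0.45 and matrix ones between -0.06 and 0.65.

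Over all 727 wells, the genes most like each member were ranked by the lower Pearson r of the tumors among 7588 genes read in at least 20% of the wells of each. *Ctsk* was most like *Col1a1* (r of 0.57 in both tumors), *Bgn* (0.59 and 0.55) and *Col6a2* (0.58 and 0.53), which encode collagen chains and the proteoglycan biglycan. *Ctsb* was most like the membrane metalloproteinase gene *Mmp14* (0.46 and 0.56), *Lamp1* and *Pdia3*, and *Ctsl* like *Ctsb* (0.47 and 0.43), *Lamp1* and *Psap*. *Lamp2* followed *Laptm4a* (0.47 and 0.51), *Itm2b* and *Psap*, and *Lamp1* followed *Mfge8* (0.45 and 0.54), *Ctsb* and *Itgb1*. *Ctsz* was nearest to *Ctsb* (0.39 and 0.40), *Col5a2* and *Lamp2*, *Ctsa* to *Mmp14* (0.33 and 0.35), *P4hb* and *Itm2c*, and *Creg1* to *Dkk3* (0.34 and 0.33), *Svep1* and *Itgbl1*. The genes most like *Ctsd* included *Mmp2* (0.38 and 0.37) and *Pdpn* (0.37 in both tumors). *Ctss* was read in too few wells to be ranked. The coefficients of this ranking were computed across wells of all classes and depths. How far they reflect differences between the classes or in library depth was not tested. They are descriptions and carry no test.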

How the data were processed

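A count table and an RPKM table of all 768 wells were used. For the counts, the authors aligned reads with STAR (build mm10) and summed them over RefSeq gene models, with no normalization. The RPKM table was computed by the authors with rpkmforgenes. Judged from 6 of 7 members checked, its values are scaled to all reads of a well, spike-ins included, so a well with more ERCC reads shows lower RPKM values. Columns were matched to wells by title, and the plate of a well gave its tumor. The genes, the classes and the lists were chosen with earlier results of these data known.

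Counts were summed per class and tumor (7349369 to 48279459 reads per library) and fitted with edgeR 4.0.16 (TMM, glmQLFit and glmQLFTest, class as the only term) over all genes whose mean RPKM reached 1, with Benjamini-Hochberg adjustment. Standard errors are the log2 fold change divided by the square root of F. Alternatives used DESeq2 1.42.0, limma 3.58.1, spike-in totals, other class limits and filters, and the tumor as a block. Classes of 1 tumor come from the same animal, so libraries are paired, and their deviations from the class means correlated by 0.13, 0.13 and 0.11. Levels are means of log2(RPKM + 1) over cells. All members are named, with the 2 genes of smallest adjusted p per list and comparison and the 3 genes most like each member. Some genes that this rule picks are not reported here. Smart-seq2 has no molecular identifiers. The counting of reads on overlapping genes is not given in the sources used here, nor is use of strand.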

Additional observations from a re-analysis of the deposited data

How the results depend on the processing

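The 6 members called higher in matrix cells numbered 5 to 9 under the alternatives at an adjusted p of 0.05, with none lower, and 0 at an adjusted p of 0.001. They were 6 with only wells of at least 50000 reads and 7 with each cell scaled to the same total, with 0 called in Top2a-positive cells under both. The shares of all genes called under these 2 settings are not reported here, so these counts have no background beside them. All 9 log2 fold changes stayed above 0 in every alternative. Calls over all genes in matrix cells rose from 1228 to 2532 with the ERCC totals, 2151 with DESeq2 and 2296 with limma, and fell to 102 at 0.001, and those of other lysosomal genes went from 17 to 48 with the ERCC totals, 34 with limma and 0 at 0.001. In Top2a-positive cells 0 members were called, but 1 with the ERCC totals, 2 with DESeq2 and 1 with limma. Over all genes 158 became 1793, 1003 and 1512 under these, 382 without the filter on low genes and 0 at 0.001, and other lysosomal genes went from 0 to 8, 6 and 9. With the ERCC totals, *Ctsb* (0.18), *Ctsk* (0.32), *Ctsz* (0.48), *Ctsd* (0.17), *Ctsa* (0.082), *Lamp1* (0.63), *Lamp2* (0.0091) and *Creg1* (0.61) turned positive there, where the median of all genes was 0.66. With limma, *Ctsk* (0.50), *Ctsz* (0.48) and *Creg1* (0.56) did, where the median of all genes was 0.26. *Creg1* also turned positive with cells scaled to the same total (0.22), *Top2a* at an RPKM of at least 20 (0.087) and without replicate 2 (0.53, against -0.72 without replicate 1). The cause of these changes of sign was not tested. The tumor as a replicate block left 6 and 0 members called and moved all-gene calls to 1230 and 122; beyond *Acp5*, *Gga2* and *Serpinb1a*, it changed no other call among the lysosomal genes. With 1 tumor left out no residual spread remains, so those values carry no test.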
